A study of Mus musculus with 2 samples.

Results

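The interferon-inducible GTPases comprised 10 genes, chosen by symbol: 5 immunity-related GTPases (IRG: Iigp1, Irgm1, Irgm2, Igtp and Tgtp1) and 5 guanylate-binding proteins (GBP: Gbp2, Gbp3, Gbp7, Gbp8 and Gbp10). They were read by 13 probe sets, 6 of IRG and 7 of GBP genes, of 22716 on the array, and made up 10 of 11807 genes with a probe set of their own. RNA came from CD4+ T cells of female C57BL/6J mice, isolated as naive cells from spleen and lymph nodes and cultured for 60 h on antibodies to CD3 and CD28. The untreated group had no added cytokine and the IL-27-treated group had 25 ng/ml of recombinant murine IL-27. Each group was 1 array, and the labels do not say how many animals each culture came from.

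On the array labelled IL-27-treated all 5 IRG genes were higher, with log2 differences of 0.14 to 2.73, and 4 of 5 GBP genes were lower, with differences down to -0.51. For comparison, 52.1% of all genes above background were higher there by any amount. Iigp1, an effector GTPase that coats pathogen vacuoles, was 6.65-fold higher, and Irgm1 and Tgtp1 were 2.27-fold and 2.06-fold higher. Gbp10 was the exception among the GBP genes, at 1.56-fold higher. The members were chosen with this contrast in view, so these differences describe 2 arrays. With no replicate in either group, no test was run, and the variation between cultures is not known.

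IRG and GBP proteins are large GTPases of cell-autonomous immunity that interferons induce in most cell types. They gather on the vacuoles in which bacteria and parasites such as Toxoplasma live, break these open or mark them for autophagy proteins, and thus expose the microbe to the cytosol. The IRG proteins fall into effectors with the common GKS form of the nucleotide-binding loop (Iigp1, Tgtp1) and regulators with a GMS form (Irgm1, Irgm2, Igtp), which sit on the cell's own membranes and hold the effectors inactive there. In T cells the same genes are known targets of interferon-gamma.

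Interferons act on such genes through 2 short promoter elements, the interferon-stimulated response element (ISRE), bound by interferon regulatory factors, and the gamma-activated site (GAS), bound by STAT dimers. RefSeq promoter windows of build GRCm38.p6, 250 bases before to 50 bases after a transcript start, matched 7 of the 10 members. They were searched for the ISRE core GAAANNGAAA, read as TTTCNNTTTC where it lies on the opposite strand, and for the GAS form TTCNNNGAA, which reads the same on both strands. The 120 bases just before the start are printed for these 7 genes, because the arrangement of the elements differed between the 4 IRG and the 3 GBP members matched. No window matched Iigp1, the IRG member with the largest difference, or Gbp8 and Gbp10, the latter the GBP member that was higher. Capitals mark matches to either motif, and each stretch runs 5′ to 3′ on the gene's strand.

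The IRG stretches are chr11:58199436-58199555 (+ strand) for Igtp, chr11:58214857-58214976 (+ strand) for Irgm2, chr11:48992247-48992366 (- strand) for Tgtp1 and chr11:48871421-48871540 (- strand) for Irgm1.
Igtp: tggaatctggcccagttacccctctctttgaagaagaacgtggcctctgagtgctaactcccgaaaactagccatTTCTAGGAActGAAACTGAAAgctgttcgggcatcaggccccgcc
Irgm2: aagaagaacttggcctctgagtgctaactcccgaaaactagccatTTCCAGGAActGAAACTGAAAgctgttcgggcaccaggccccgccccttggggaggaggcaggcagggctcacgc
Tgtp1: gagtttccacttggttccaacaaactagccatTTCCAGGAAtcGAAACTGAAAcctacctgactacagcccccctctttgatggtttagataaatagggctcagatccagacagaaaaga
Irgm1: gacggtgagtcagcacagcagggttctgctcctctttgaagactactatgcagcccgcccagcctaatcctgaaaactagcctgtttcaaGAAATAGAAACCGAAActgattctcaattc

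The GBP stretches are chr3:142620543-142620662 (+ strand) for Gbp2, chr3:142559924-142560043 (+ strand) for the upstream start of Gbp3 and chr3:142530216-142530335 (+ strand) for Gbp7.
Gbp2: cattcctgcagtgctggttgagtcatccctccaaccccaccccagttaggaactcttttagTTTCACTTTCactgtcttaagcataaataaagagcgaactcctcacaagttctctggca
Gbp3: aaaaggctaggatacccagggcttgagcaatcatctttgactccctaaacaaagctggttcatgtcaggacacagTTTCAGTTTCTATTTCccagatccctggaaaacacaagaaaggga
Gbp7: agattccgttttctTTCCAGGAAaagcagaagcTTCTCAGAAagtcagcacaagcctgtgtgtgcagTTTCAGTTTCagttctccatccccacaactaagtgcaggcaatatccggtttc

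All 7 genes had an ISRE core within 77 bases of the start, against 3.44% of all 32851 promoter windows (1131). The core lay on the gene's own strand in the 4 IRG members matched and on the opposite strand in the 3 GBP members matched. These 3 GBP genes lie in 1 run on chromosome 3, and no member of the other GBP run was matched. Whether the orientation holds for each family as a whole was not tested. Other IRG genes did not all follow, since 4 of 8 with a window had no ISRE core, 3 had it on the gene's strand and 1, Gm12250, had it on the opposite strand. Among the 4 without a core was Ifi47, which had no GAS match either and was higher by a log2 difference of 0.74. Over all promoters the orientations were about equally frequent, with 573 windows holding it on the gene's strand and 564 on the opposite strand. Irgm1 and Gbp3 each held a pair of overlapping cores, at 30 and 24 bases before the start in Irgm1 and at 45 and 39 in Gbp3. The other start of Gbp3 had neither motif.

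A GAS match stood 11 bases before the ISRE core, counted from first base to first base, in Igtp, Irgm2 and Tgtp1. The GAS began 45, 75 and 88 bases before the start in these genes. This spacing occurred in 5 of 32851 windows (0.0152%), all of them of IRG genes, the other two being Gm12185 and Tgtp2. The spacing was read from the members first and then counted in all windows. Gbp7 had GAS matches at 106 and 87 bases, which lay 53 and 34 bases before its ISRE core, and Gbp2, Gbp3 and Irgm1 had none in the window. A GAS match was found in 8.30% of all windows, with or without an ISRE core.

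Related genes share promoter sequence, so the 7 windows are not independent. The stretches of Igtp and Irgm2, which are neighbours on the chromosome, had a common run of 38 bases that includes part of the GAS. That run ends at a base inside the GAS where the stretches differ. They match again from the next base through the ISRE core, so the shared spacing lies within common sequence. The runs were 20 bases for Irgm2 and Tgtp1 and 14 for Igtp and Tgtp1. Between the IRG and the GBP stretches, each read on the gene's own strand, the longest common run was 10 bases. Runs with a strand reversed were not counted, and the printed letters hold a longer one. In Gbp7 TTTCAGTTTCagttc is the reverse complement of GAActGAAACTGAAA in Igtp and Irgm2. The families therefore share sequence around the core when the orientation is turned. A match is a description of the letters and does not show that a factor was bound.

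**Figure D1:**
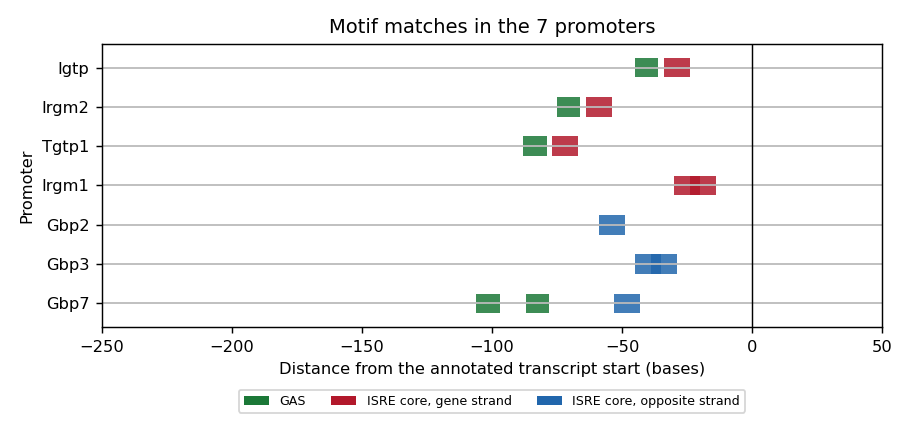
Positions of the motif matches in the 7 promoters, with the x axis in bases from the annotated transcript start and 1 row per gene; green bars are GAS matches, red bars ISRE cores on the gene's strand and blue bars ISRE cores on the opposite strand. Igtp, Irgm2 and Tgtp1 share the GAS and ISRE pair at a spacing of 11 bases, and the 3 GBP genes shown carry the ISRE core in the other orientation.

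The deposited values were intensities on a linear scale, with medians of 33.3 on the untreated and 32.4 on the IL-27-treated array. A background floor at an intensity of 24.4 was set from genes of other tissues, and 6899 genes were above it on at least 1 array. All 10 members and all 13 of their probe sets were above it on both arrays. Among those 6899 genes the median difference was 0.02, with quartiles at -0.20 and 0.22 and the 5th and 95th percentiles at -0.72 and 0.59. The differences of probe sets of 1 gene had a pooled SD of 0.21 over 2252 genes, which covers error between probes and not error between cultures.

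The labels were set against 9 genes with a known response to IL-27, and by measured values 7 of 9 were past 2-fold against the labelled direction and 0 were past 2-fold with it. Socs3, Il21, Prdm1, Il12rb2 and Il10 are known to be raised by IL-27, and on its labelled array Socs3 was 6.04-fold lower, Il21 14.4-fold, Prdm1 at least 7.79-fold, Il12rb2 2.23-fold and Il10 at least 1.94-fold lower. Tbx21 and Cd274, also known to be raised, differed by -0.23 and 0.06 on the log2 scale. Il2 and Gata3, which IL-27 is known to restrain, were 5.48-fold and 4.56-fold higher there. All directions here are those of the labels, and with 1 array per group an exchange of the 2 labels cannot be told apart from a response of these cultures. An exchange would turn the sign of every difference, rank and share given here, so that the IRG genes would be lower and most GBP genes higher with IL-27.

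The T cell list was present, with all 9 measured genes above the floor and Cd4 at 342.5 and 395.4 on the untreated and IL-27-treated arrays. Macrophages express IRG and GBP genes strongly under interferon, and 2 of 12 macrophage genes, 1 of 8 B cell genes and 2 of 7 dendritic cell genes were above the floor. Adgre1, Lyz2, Itgam and Itgax were below it on both arrays. The 2 macrophage genes above the floor were Cd68 and Csf1r. Cd68 read 54.9 on the untreated and 27.5 on the IL-27-treated array, 1.99-fold lower, and Csf1r read 26.2 and 24.4, near the floor. Summed intensities were 198.3 on the untreated and 170.5 on the IL-27-treated array for macrophage genes, 109.8 and 119.3 for B cell genes and 442.5 and 258.9 for dendritic cell genes. For NK cell and CD8 T cell genes, 3 of 8 above the floor, they were 362.1 and 272.2, with Klrd1 at least 4.69-fold and Klrk1 at least 2.80-fold lower and Cd8b1 1.48-fold higher on the IL-27-treated array. In the dendritic cell list H2-Ab1 was 3.83-fold lower there and H2-Eb1 1.75-fold higher. These cells' part in the GTPase signal was not tested. In bulk RNA, fewer expressing cells and less RNA per cell cannot be told apart.

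Iigp1 encodes Irga6, an IRG effector of the GKS type that loads onto the vacuole of Toxoplasma. Its probe set 1419043_a_at read 173.4 on the untreated and 1153 on the IL-27-treated array, and probe set 1419042_at read 96.0 and 667.0. The log2 differences were 2.73 and 2.80, so its 2 probe sets were 0.06 apart. Among the 6899 genes above the floor Iigp1 had rank 9 from the highest difference.

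Tgtp1, also named Irgb6, is the other effector of the GKS type and was first known as a GTPase specific to T cells. Its probe set 1449009_at read 1060 on the untreated and 2185 on the IL-27-treated array, a difference of 1.04. It was the member just inside the 2-fold limit, at rank 90 of 6899. Tgtp1 has a nearly identical copy, Tgtp2, and the probe set may read both.

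The 3 regulators of the GMS type differed among themselves. Irgm1, which restrains the effectors and is needed for the survival of activated T cells, read 138.8 on the untreated and 314.4 on the IL-27-treated array by probe set 1418825_at, a difference of 1.18. Irgm2, which localizes to the Golgi, read 194.5 and 259.3 by 1417793_at, a difference of 0.41. Igtp, also named Irgm3, an endoplasmic reticulum protein, read 3990 and 4402 by 1417141_at, a difference of 0.14 that is smaller than the SD between probe sets. Igtp thus lay between the quartiles of all genes, while Irgm1 was above the 95th percentile.

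By subgroup, the median difference was 1.89 over the 2 effectors and 0.41 over the 3 regulators, and Irgm1 (1.18) lay between Tgtp1 (1.04) and Iigp1 (2.73). Igtp and Irgm2 are adjacent and were 0.27 apart. Irgm1 and Tgtp1 lie in another run of IRG genes on that chromosome and were 0.14 apart. Ifi47, an IRG gene of the same run that was not a member, read 1155 and 1935, a difference of 0.74. Gm12185, a further IRG gene of that run, was below the floor on both arrays.

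Of the IRG members 3 of 5 were at least 2-fold higher and 0 lower, where 1.49% of the genes above the floor were at least 2-fold higher. Their median difference was 1.04, beside 0.02 over all genes above the floor.

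Gbp2, a GBP that is lipid-anchored to membranes and coats Toxoplasma vacuoles, was lower by both of its probe sets. Probe set 1435906_x_at read 1764 on the untreated and 1305 on the IL-27-treated array, and 1418240_at read 1719 and 1035. The differences were -0.43 and -0.73, the same sign at sizes 0.30 apart, which is more than the SD between probe sets. The former is of a type (_x_at) that can take up related transcripts.

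Gbp7, a GBP of vacuole defence, read 464.8 on the untreated and 341.9 on the IL-27-treated array by probe set 1434380_at, and 325.3 and 245.7 by 1425156_at. Its 2 differences, -0.44 and -0.40, were 0.04 apart. Gbp3 read 173.6 and 122.2 by probe set 1418392_a_at, a difference of -0.51. Gbp2, Gbp3 and Gbp7 belong to 1 run of neighbouring genes, and their differences spanned -0.51 to -0.43. That range of 0.07 was narrower than the SD between probe sets, but it was 0.29, wider than the SD, with Gbp2 read by 1418240_at.

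Gbp8 and Gbp10 belong to the second GBP run, on another chromosome. Gbp8 read 145.8 on the untreated and 118.5 on the IL-27-treated array by probe set 1418776_at, a difference of -0.30. Gbp10 read 134.9 and 210.0 by 1438676_at, a difference of 0.64 with the opposite sign. Gbp10 and its neighbour Gbp6 are close copies of each other, and 1 probe set may read both, so the transcript behind this value is uncertain. Gbp10 was the member just outside the 2-fold limit.

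No GBP member reached 2-fold in either direction (0 of 5 higher and 0 of 5 lower), where the shares of all genes above the floor were 1.49% for higher and 2.73% for lower. At 1.5-fold 1 of 5, Gbp10, was higher and 0 lower, where 5.15% and 7.26% of genes were. With Gbp2 read by 1418240_at, 1 of 5 was lower at 1.5-fold. The median difference was -0.43, and the 4 lower members had ranks from 645 to 1254 of 6899 counted from the lowest, within the lowest 18.2% of genes. The other GBP genes measured, Gbp2b and Gbp4, were below the floor on both arrays.

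**Figure D2:**
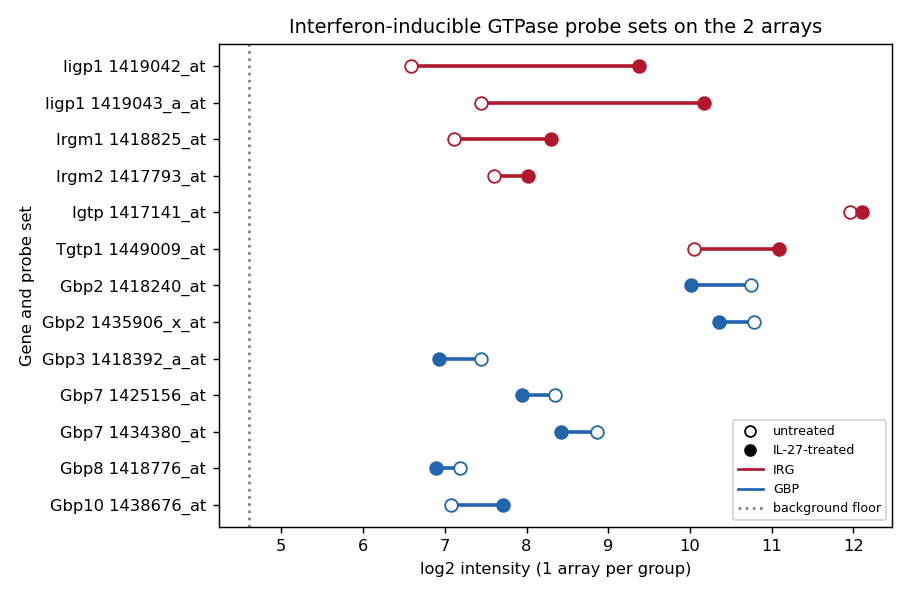
Log2 intensity (x axis) of the 13 probe sets (y axis) on the untreated array (open circles) and the IL-27-treated array (filled circles), IRG in red and GBP in blue, with the background floor dotted. All IRG probe sets lie further right on the IL-27-treated array, and all GBP probe sets but that of Gbp10 lie further left, with every point above the floor.

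The families differed by 1.48 on the log2 scale between their medians (1.04 for IRG, -0.43 for GBP), a 2.78-fold ratio. They overlapped through Gbp10, whose 0.64 lay above Irgm2 (0.41) and Igtp (0.14). In the order of the 10 differences, Irgm1 and Tgtp1 were closer to each other (0.14) than the SD between probe sets of 0.21. So were each of the neighbours among Gbp8, Gbp2, Gbp7 and Gbp3, whose gaps were at most 0.14. The gap between Iigp1 and Irgm1 (1.55) was the widest of the order.

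**Figure D3:**
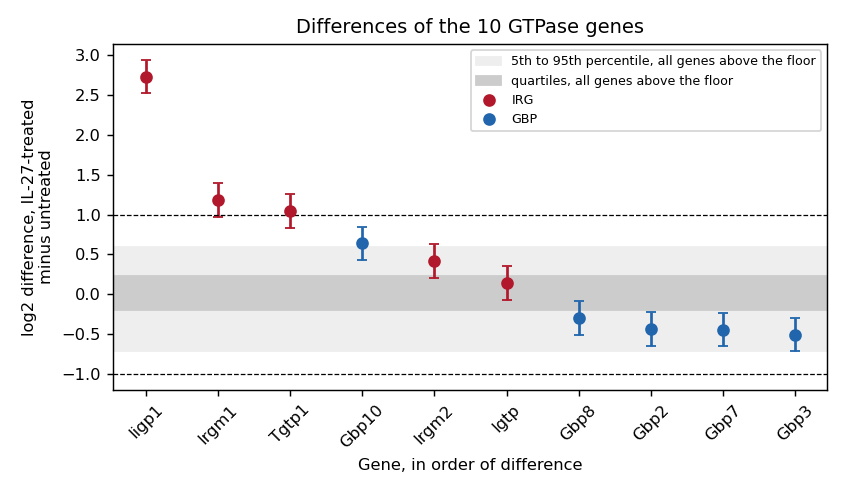
Log2 difference, IL-27-treated minus untreated, of the 10 genes in order (IRG red, GBP blue; error bars are the pooled SD of 0.21 between probe sets of 1 gene, not an error between cultures); grey bands mark the quartiles and the 5th to 95th percentile of 6899 genes, and dashed lines mark 2-fold. Iigp1, Irgm1 and Tgtp1 are past 2-fold, Gbp10 is above the upper band and below 2-fold, and the other 4 GBP genes lie inside the outer band and below the inner one.

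The 2 arrays allow likeness to be judged by the difference alone. Among the 6584 genes above the floor on both arrays, those just above Iigp1 (2.73) were Phlda1 (2.80) and Ifi205 (2.78), an interferon-inducible gene of the Ifi200 family. Those just below were Trat1 (2.63), a T cell receptor adaptor, and Pla1a (2.53), a phospholipase. Phlda1 was close to the floor on the untreated array, at 25.6.

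Regulators of the GTPases were within 2-fold, with Socs3 as the exception. Past 2-fold were 0 higher and 1 lower of the 19 genes above the floor, and the median was 0.03. Irf1, the interferon regulatory factor known to drive IRG and GBP genes, read 628.5 on the untreated and 794.3 on the IL-27-treated array, a difference of 0.34. Ifng, the cytokine that induces both families most strongly, read 73.5 and 123.9, a difference of 0.75. Socs1, the feedback inhibitor of interferon-gamma signalling, read 196.7 and 212.9, a difference of 0.11.

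The median of other interferon-stimulated genes, 0.38, lay between those of the families, while single genes ranged from -0.81 (Dhx58) to 1.43 (Ifitm3), beyond the GBP members at the lower end. Past 2-fold were 2 higher and 0 lower of the 18 above the floor. Ifitm3, which blocks virus entry, read 105.5 and 283.3, a difference of 1.43. Isg20, an exonuclease, read 41.0 and 83.6, a difference of 1.03. Antigen presentation and other interferon-gamma targets had 1 gene higher and 0 lower past 2-fold of 10 above the floor, a median of 0.36 and all 10 on the higher side. The class II gene H2-Ab1, kept in the dendritic cell list, went the other way, from 312.5 to 81.6, with differences of -1.11 to -1.94 over its 3 probe sets. The gene past 2-fold was Cd74, the class II invariant chain, which read 58.4 and 171.8, a difference of 1.56. Beside these medians 4 of the 5 GBP genes had the opposite sign.

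Genes of vacuole targeting and autophagy, the machinery that the IRG and GBP proteins work with, had 0 of 16 above the floor at least 2-fold apart and a median of -0.02. The largest differences were those of Casp1 (0.84), a caspase of the inflammasome, and Gabarapl1 (-0.74), an ATG8 protein. Gabarapl1 had -0.67 by its other probe set. Among other dynamin-like GTPases 0 of 3 above the floor were 2-fold apart, with Atl3 at 0.34 and Dnm1l at 0.19. By its other probe set above the floor Dnm1l had -0.04. Mx1 and Mx2, the interferon-induced antiviral GTPases, were below the floor on both arrays.

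**Figure D4:**
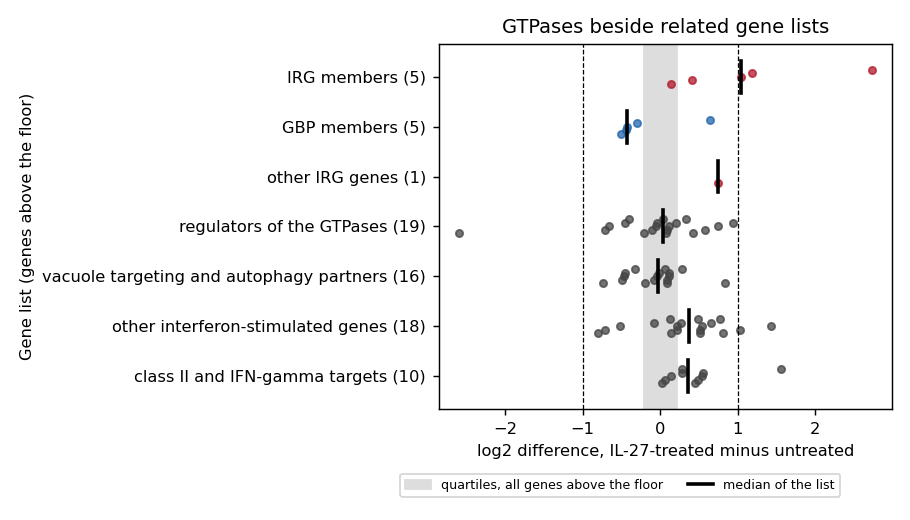
Log2 difference, IL-27-treated minus untreated (x axis), of each gene above the floor in 7 lists (y axis, number of genes in brackets), with list medians as black bars, 2-fold as dashed lines and the quartiles of all genes as a grey band. The IRG median of 1.04 lies right of the interferon lists (0.38 and 0.36), and the GBP median of -0.43 lies left of them.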

How the data were processed

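Biotinylated RNA was made from 100 ng of total RNA by in vitro transcription from the poly(A) end, per the labels' protocols. The deposited intensities were made with RMA, per the submitters' processing notes (version: not given in the sources used here). The method makes the arrays' distributions alike and compresses differences of dim probe sets. Depth has no meaning for arrays, and their number, 1 per group, limits precision.

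Intensities were converted to log2 (Python 3.11.15, pandas 2.3.3) without a pseudocount. Each gene took the probe set whose mean log2 level was highest, among 18003 with 1 gene symbol (287 had several, 4426 none listed). The floor was the 95th percentile of 41 measured genes of other tissues, of 46 listed. Symbols of all 10 members were in a RefSeq table of GRCm38.p6, which served for names and neighbours.

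The members and gene lists were chosen with earlier results of these data known. Named were all members, the genes of each list at least 2-fold apart (up to 4, or otherwise the 2 largest differences), the regulators Irf1, Ifng and Socs1, the label checks and the 2 genes either side of Iigp1. The calculation was tested on simulated arrays. Alternatives covered the floor, normalization, the probe set, a pseudocount of 16, the fold and the family's summary and membership.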

Additional observations from a re-analysis of the deposited data

How the results depend on the processing

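Of 80 values of single members under 8 alternatives, 35 were identical to the main value, mostly because the members lie above the floor or have 1 probe set. Of the other 45, 44 moved by less than the SD of 0.21 between probe sets and 0 changed sign; the exception in size was Gbp2, at -0.73 without the _x_at probe set. The lowest value of Tgtp1 was 1.001, so its place past 2-fold rests on a narrow margin. Over the alternatives the IRG median ranged from 0.73 to 1.11, the GBP median from -0.48 to -0.21 and their difference from 1.16 to 1.55. The GBP value was -0.21 with the mean of the members, and 1 GBP gene was higher at 1.5-fold. Without Iigp1, an alternative chosen after seeing the data, the IRG median was 0.73, the difference between the families 1.16, and 2 IRG genes were at least 2-fold higher. Counting every probe set was also chosen after seeing the data. No paired analysis was possible because each group has 1 array, and no replicate could be left out. Signal over background does not limit the members, which were all above the floor.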

Other observations

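The orientation of the ISRE core was compared with the differences of all genes that had a promoter window, a count made after the members' promoters were seen. Of 5686 genes above the floor with a window, 217 (3.82%) held an ISRE core, and their median difference was 0.08, beside 0.01 for the 5469 without. With the core on the gene's strand, 6 of 106 genes were higher past 2-fold and 2 were lower, and Irgm1 and Tgtp1 were among the 6. With the core on the opposite strand, 1 of 112 was higher and 8 lower. The split by orientation was taken from the 7 members with a window, which are within these counts. The counts are therefore no independent check of it. Of the 7 members only Irgm1 and Tgtp1 were past 2-fold, so no GBP member was among the 8 lower. Of the 5469 genes without a core 71 (1.30%) were higher and 137 (2.51%) lower past 2-fold, and the differences between these shares were not tested. The median difference was 0.10 with the core on the gene's strand and 0.07 with it on the opposite strand. Of the other interferon-stimulated genes, 13 of 25 with a window held the core, 8 on the gene's strand and 5 on the opposite strand.

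The receptor chains for interferon-gamma had opposite signs and were named after their values were seen. Ifngr1, the ligand-binding chain, read 398.5 on the untreated and 244.3 on the IL-27-treated array, a difference of -0.71. Ifngr2, the signalling chain, read 31.2 and 59.9, a difference of 0.94, and 0.08 by its other probe set, which read 23.3 and 24.5, near the floor. Both chains are needed for the response that induces IRG and GBP genes. Samhd1 (-0.52) and Dhx58 (-0.81), the latter a cytosolic RNA sensor and both named after their values were seen, were interferon-stimulated genes with the same sign as most GBP genes.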
